A study of Homo sapiens with 10 samples.

Results

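The epithelial integrins are the adhesion receptor subunits that keratinocytes and other lining cells use to hold on to their matrix, and 10 of their genes were described here: ITGA2, ITGA3, ITGA5, ITGA6, ITGAV, ITGB1, ITGB4, ITGB5, ITGB6 and ITGB8. They were taken by gene symbol from a table of read counts for 58735 genes, and each symbol matched 1 row. The counts come from RNA-seq of A253, a human cell line from a primary squamous cell carcinoma of the salivary gland, grown in DMEM with serum. The study asked what role DUSP1, a phosphatase that switches off MAP kinases, has in the progression of this cancer. It tested growth, self-renewal and tumour formation, and RNA-seq was a part of that work. There were 3 groups of 2 libraries each, and cells of all 3 groups went through Cas9 delivery. The control (DUSP1+/+) received a guide RNA against dTomato, a sequence that human cells do not carry. Cl1 and Cl10 (DUSP1-/+) are single-cell clones in which guides deleted exon 2 of DUSP1 on 1 allele, and the study saw no DUSP1 protein in either by Western blot. The deletion is thus represented by 1 clone in each of these 2 groups. The sources used here do not say that the control was grown from a single cell. Between a clone and the control, the deletion and single-cell cloning thus cannot be told apart. No source used here says that the 2 libraries of a group came from separate cultures. The p-values therefore measure only the spread between these libraries, which may be technical.

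Integrins are pairs of an alpha and a beta chain that span the membrane, bind matrix proteins outside the cell and connect to the cytoskeleton inside. In squamous epithelium the pair of ITGA6 and ITGB4 anchors basal cells to laminin in the hemidesmosome, a plaque tied to keratin filaments. Among other pairings, ITGB1 pairs with ITGA3 (laminin), ITGA2 (collagen) and ITGA5 (fibronectin), while ITGAV pairs with ITGB5, ITGB6 or ITGB8. The last 2 of these pairs are known for activating latent TGF-beta, and ITGB6 is a chain of epithelia that is raised in wounds and in many carcinomas.

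Library totals lay between 47016495 and 70986593 counts. Values below are normalised read counts, scaled with TMM factors to the mean library total, and fold changes come from edgeR's quasi-likelihood test on the counts with Benjamini-Hochberg adjustment over all genes tested. A gene passed at an adjusted p under 0.05, and the terms rose and fell are kept for genes that passed. Both clones were set against the same 2 control libraries, so a deviation of a control moves both fold changes in the same direction. All 8 squamous epithelial markers checked, among them KRT5, KRT14 and TP63, were detected in every library, with summed levels of 12560 to 14160 CPM. The 10 markers of leukocytes, endothelium and fibroblasts summed to 27.4 to 30.2 CPM in the control, 33.0 to 34.5 in Cl1 and 25.8 to 26.3 in Cl10, with up to 3 of them at 0 in a library. PTPRC, CD3E, PECAM1, DCN and PDGFRB stayed at no more than 14 counts, and CDH5 at no more than 41. The highest counts in a library were 1285 for COL3A1, 911 for CD14 and 379 for VWF. CD14 rose in both clones (0.87 and 0.50 on the log2 scale), VWF in Cl1 (0.93) and CDH5 in Cl10 (2.28), while COL3A1 fell in Cl10 (-0.54), and their part in the results was not tested. The 5 salivary acinar markers summed to 0.128 to 0.436 CPM. In bulk RNA, fewer cells of a type and less RNA per cell cannot be told apart. DUSP1 itself had 744 and 635 normalised counts in the control, 304 and 354 in Cl1, and 495 and 415 in Cl10. Its 4 clone values lay below both controls, with log2 fold changes of -1.07 in Cl1 (SE 0.149, edgeR adjusted p = 0.000292) and -0.59 in Cl10 (SE 0.134, edgeR adjusted p = 0.0113). Without Cl10 replicate 2 the latter was -0.48 (edgeR adjusted p = 0.0794). Gene counts do not separate exon 2 from the rest of the gene.

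All 10 integrin genes passed the filter on low counts. In Cl1, 3 of them rose (ITGA6, ITGB6, ITGB8) and 2 fell (ITGA5, ITGB5), where 12.4% of all 20153 genes tested rose and 12.8% fell. In Cl10, 4 rose (ITGA2, ITGA6, ITGAV, ITGB6) and 3 fell (ITGA3, ITGA5, ITGB8), beside 20.6% higher and 21.8% lower among 19875 genes. ITGA6 and ITGB6 rose in both clones, ITGA5 fell in both, and ITGB8 rose in Cl1 and fell in Cl10. ITGB1 and ITGB4 passed in neither clone. The libraries of clone and control did not overlap for 8 of the 10 in Cl1 and 9 of the 10 in Cl10, where 63.6% and 73.8% of all genes tested showed as much. The median log2 fold change over the 10 genes was 0.12 in Cl1 and 0.05 in Cl10, against -0.01 over all genes in each, since the members moved both ways. With a change of over 2-fold also required, ITGB6 remained in Cl1, and ITGB6 and ITGA5 remained in Cl10, where 7.54% and 13.4% of all genes met both limits.

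**Figure D1:**
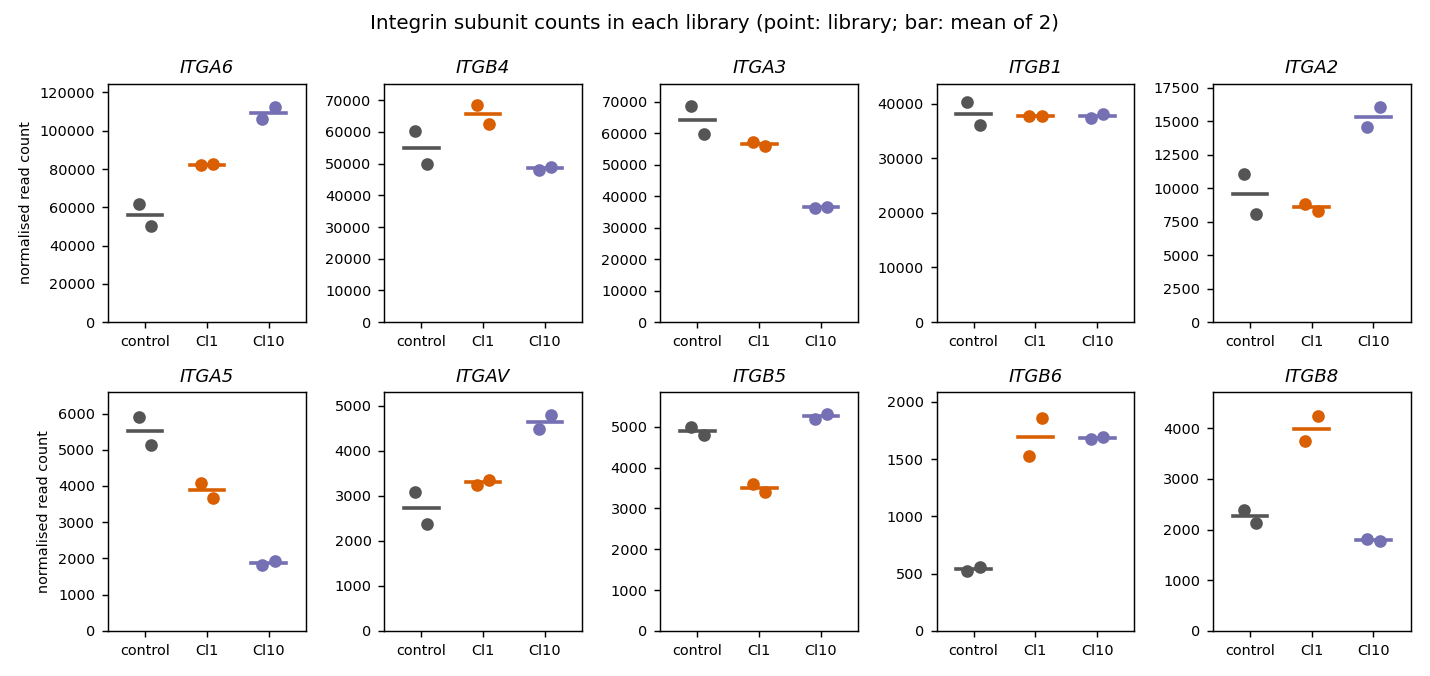
Normalised read counts of the 10 integrin genes in the control, Cl1 and Cl10. Each point is 1 library, each bar is the mean of the 2 libraries of a group, and every vertical axis starts at 0. ITGB6 lies between 527 and 554 in the controls and between 1530.0 and 1862 in the clones, while the points of ITGB1 stay between 36057 and 40214.

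ITGA6, the alpha chain of the hemidesmosomal laminin receptor, had 61667 and 49996 normalised counts in the control, 82155 and 82487 in Cl1, and 106284 and 112269 in Cl10. The groups did not overlap and followed the order control, Cl1, Cl10. It rose by 0.56 on the log2 scale in Cl1 (SE 0.148, edgeR adjusted p = 0.0152) and by 0.97 in Cl10 (SE 0.121, edgeR adjusted p = 0.000992), that is 1.48-fold and 1.96-fold. Its partner ITGB4 had 60389 and 49762 in the control, 68632 and 62508 in Cl1, and 48074 and 49033 in Cl10. Here both Cl1 values lay above the controls and both Cl10 values below them, although control 2 exceeded the nearest Cl10 value by little. Neither difference passed, at 0.25 in Cl1 (SE 0.147, edgeR adjusted p = 0.232) and -0.18 in Cl10 (SE 0.112, edgeR adjusted p = 0.243). ITGA3, the laminin-binding partner of ITGB1, had 68482 and 59625 in the control, 57249 and 55989 in Cl1, and 36367 and 36638 in Cl10. Both Cl10 libraries lay far below all others, and those of Cl1 just below the controls. ITGA3 fell by 0.81 on the log2 scale in Cl10 (SE 0.0995, edgeR adjusted p = 0.000984), a 1.75-fold lower level, and had -0.18 in Cl1 (SE 0.139, edgeR adjusted p = 0.39).

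Some of these calls changed when 1 library was left out. Control 1 lay above control 2 in 9 of the 10 members, against 49.9% of the genes tested. Without Cl1 replicate 1 or Cl1 replicate 2, ITGA6 kept a log2 fold change of 0.57 or 0.56 in Cl1 with edgeR adjusted p of 0.112 and 0.108. ITGB4 passed in Cl1 without control 1 (0.40, edgeR adjusted p = 0.0173) and in Cl10 without control 2 (-0.32, edgeR adjusted p = 4.03e-14). With the other control left out in turn, ITGB4 was at 0.12 in Cl1 (edgeR adjusted p = 0.559) and at -0.04 in Cl10 (edgeR adjusted p = 0.433). These fits hold 1 library in a group, which is assumed to vary like the others.

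ITGB1, the common partner of ITGA2, ITGA3 and ITGA5, was level. Its normalised counts were 40214 and 36057 in the control, 37737 and 37822 in Cl1, and 37419 and 38066 in Cl10, so that all 4 clone values lay between the 2 controls. The log2 fold change was -0.01 in both clones, with intervals of 2 SE from -0.27 to 0.25 in Cl1 (edgeR adjusted p = 0.961) and from -0.20 to 0.18 in Cl10 (edgeR adjusted p = 0.942). The highest library exceeded the lowest 1.12-fold. Leaving out control 2 gave -0.09 in Cl10, which passed (edgeR adjusted p = 0.0472). Of the alpha chains that share this partner, ITGA2 rose in Cl10 while ITGA3 and ITGA5 fell. In Cl1 only ITGA5 passed, as lower.

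ITGA2, the collagen-binding chain, had 11035 and 8035 normalised counts in the control, 8825 and 8312 in Cl1, and 14587 and 16079 in Cl10. The Cl1 values fell within the range of the controls, whose 2 libraries were far apart, and both Cl10 values were the highest. ITGA2 rose in Cl10 by 0.69 on the log2 scale (SE 0.151, edgeR adjusted p = 0.0101), 1.61-fold, and was at -0.15 in Cl1 (SE 0.146, edgeR adjusted p = 0.486). Without control 2, ITGA2 passed as lower in Cl1 (-0.36, edgeR adjusted p = 0.00777), while without control 1 it was at 0.09.

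ITGA5, the fibronectin-binding chain, fell the most of the members. It had 5892 and 5122 normalised counts in the control, 4073 and 3681 in Cl1, and 1812 and 1935 in Cl10, in 3 steps without overlap. The log2 fold change was -0.50 in Cl1 (SE 0.119, edgeR adjusted p = 0.0084) and -1.55 in Cl10 (SE 0.0996, edgeR adjusted p = 9.96e-05), a 1.42-fold and a 2.93-fold lower level. In Cl1 it was -0.58 without Cl1 replicate 1 and -0.43 without Cl1 replicate 2 (edgeR adjusted p of 0.0504 and 0.16). FN1, the ligand of this receptor, is given further on, among the matrix ligands.

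ITGAV had 3094 and 2364 normalised counts in the control, 3246 and 3346 in Cl1, and 4487 and 4785 in Cl10. Both clones lay above both controls, Cl10 clearly and Cl1 narrowly. ITGAV rose in Cl10 by 0.77 on the log2 scale (SE 0.131, edgeR adjusted p = 0.00374), 1.70-fold, and had 0.27 in Cl1 (SE 0.131, edgeR adjusted p = 0.147), which became 0.48 and passed without control 1 (edgeR adjusted p = 0.000102) but 0.10 without control 2 (edgeR adjusted p = 0.568). Of its beta partners, ITGB5, a vitronectin receptor chain, had 5001 and 4804 in the control, 3606 and 3408 in Cl1, and 5196 and 5317 in Cl10. Only the Cl1 libraries were low, with a log2 fold change of -0.48 (SE 0.109, edgeR adjusted p = 0.00671), 1.40-fold lower. In Cl10 the value was 0.11 (SE 0.0785, edgeR adjusted p = 0.314), and 0.13 with an edgeR adjusted p of 0.0208 when control 1 was left out. The fall of ITGB5 in Cl1 was -0.52 without Cl1 replicate 1 and -0.44 without Cl1 replicate 2, with edgeR adjusted p of 0.0742 and 0.141.

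ITGB6, which pairs with ITGAV alone, had the largest rise of the members in both clones. It had 527 and 554 normalised counts in the control, 1530.0 and 1862 in Cl1, and 1677 and 1693 in Cl10. All clone libraries were well above both controls and those of Cl10 lay inside the range of Cl1. The log2 fold change was 1.65 in Cl1 (SE 0.131, edgeR adjusted p = 3.52e-06) and 1.65 in Cl10 (SE 0.0883, edgeR adjusted p = 5.8e-05), 3.14-fold and 3.13-fold. ITGB8, another TGF-beta activating partner of ITGAV, had 2395 and 2135 in the control, 3749 and 4238 in Cl1, and 1806 and 1781 in Cl10. The clones lay on opposite sides of the control, without overlap. ITGB8 rose in Cl1 by 0.82 on the log2 scale (SE 0.116, edgeR adjusted p = 0.000335), 1.76-fold, and fell in Cl10 with -0.33 (SE 0.0878, edgeR adjusted p = 0.0211), 1.26-fold. Without Cl10 replicate 1 or 2 the value in Cl10 was -0.34 or -0.32 (edgeR adjusted p of 0.183 and 0.204).

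The starts of ITGB6 and ITGA5, the members with the largest rise and the largest fall, are shown for their contrast in base composition. Both lie on the minus strand of hg38, and the bases before the annotated gene are printed 5′ to 3′, from RefSeq on GRCh38.p14, with matches to the motifs searched in capitals.
ITGB6, chr2:160200314-160200522: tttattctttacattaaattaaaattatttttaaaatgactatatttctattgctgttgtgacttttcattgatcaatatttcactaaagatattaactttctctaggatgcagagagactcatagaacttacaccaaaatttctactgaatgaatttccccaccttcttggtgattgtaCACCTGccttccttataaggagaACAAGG
ITGA5, chr12:54419267-54419516: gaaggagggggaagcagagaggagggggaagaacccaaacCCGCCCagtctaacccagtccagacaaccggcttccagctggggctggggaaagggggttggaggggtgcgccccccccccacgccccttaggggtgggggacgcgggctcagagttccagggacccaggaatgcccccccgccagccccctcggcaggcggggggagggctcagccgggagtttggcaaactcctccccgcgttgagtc
The 250 bases before the RefSeq start of ITGB6 hold 30.0% G and C, more than 1.52% of 35116 promoters, and those of ITGA5 hold 70.0%, beside a median of 58.0%. In ITGB6 an E-box of the kind bound by ZEB factors (CACCTG) lies 29 to 24 bases before the annotated gene. A match to ACAANG lies 6 to 1 bases before the gene. That pattern is a loose form of a SOX site, with any base at N, and the base here is G. In ITGA5 the capitals mark a GC box on the other strand, 210 to 205 bases before the gene.

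RefSeq windows of 250 bases were found for 8 of the 10 members, with 13 start sites. Both strands were searched for 5 motifs. TGANTCA, a site of AP-1, was in none of the 8 members and in 6.57% of all promoters. A match running past the end of a window was not counted, and the ITGA5 window ends in TGAGTC, the start of this motif. CACCTG was in 3 members (ITGA6, ITGB5, ITGB6) and 17.5% of promoters, and ACAANG in 2 (ITGAV, ITGB6) and 30.9%. GGGCGG was in 6 members and 42.6% of promoters, and TATAAA in 2 (ITGA6, ITGB1) and 10.7%. A member counted if any of its start sites matched, while the shares are of single promoters, so their units differ. Of the 13 windows of the members, CACCTG was in 3, ACAANG in 2, GGGCGG in 7, TATAAA in 2 and TGANTCA in 0. In the members the only overlapping matches were of TATAAA with its own reverse complement at ITGB1. A match to letters is a description of the window and no evidence of binding.

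**Figure D2:**
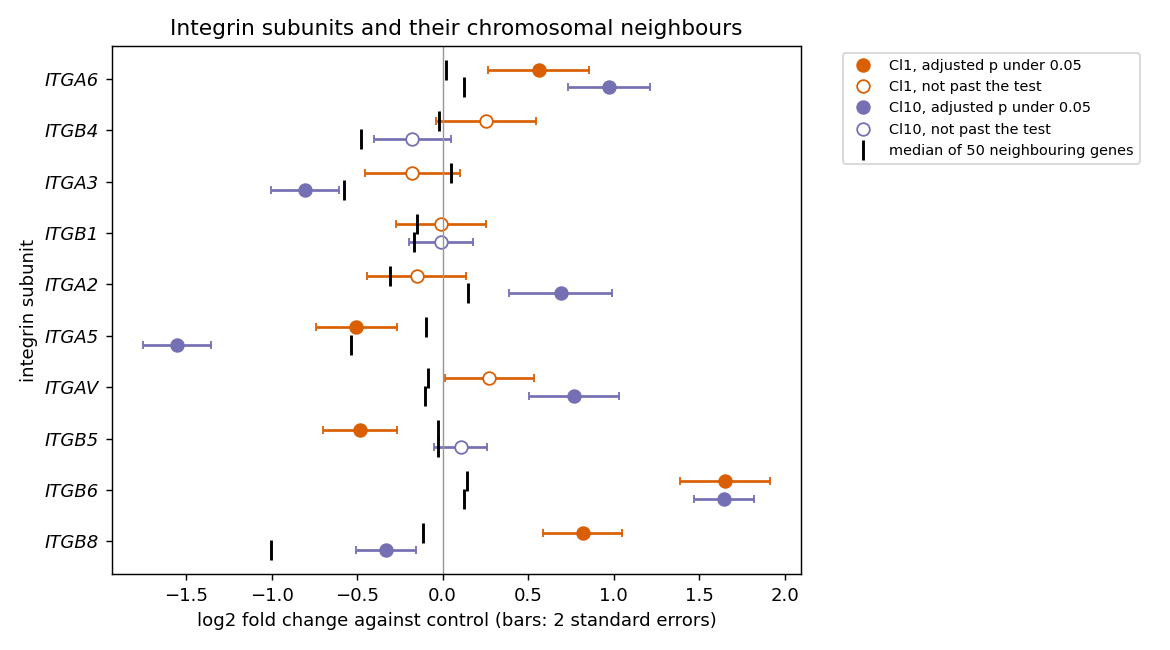
Log2 fold changes of the 10 integrin genes against the control, with bars of 2 SE on each side, filled where the adjusted p was under 0.05. Black ticks give the median of the 50 tested genes nearest on the chromosome, which for ITGB8 in Cl10 stands at -1.00, further left than ITGB8 itself at -0.33.

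The 2 clones were also set against each other, without the control. There 4 members were higher in Cl10 (ITGA2, ITGA6, ITGAV, ITGB5) and 4 lower (ITGA3, ITGA5, ITGB4, ITGB8), where 24.9% of 19818 genes were higher and 24.1% lower, 49% in all. The clones did not overlap for 8 of the 10, as for 74.8% of all genes, and 2 of the 8 differed by over 2-fold, as 10.8% of all genes did past the test. The largest difference was that of ITGB8, with a log2 fold change of -1.15 (SE 0.07, edgeR adjusted p = 9.44e-08), followed by ITGA5 with -1.05 (SE 0.0688, edgeR adjusted p = 1.74e-07). ITGA2 stood 1.79-fold higher and ITGB5 1.50-fold higher in Cl10 than in Cl1. ITGB4, which passed against the control in neither clone, was 1.35-fold lower in Cl10 than in Cl1 (edgeR adjusted p = 0.000194). ITGB1 and ITGB6 did not differ past the threshold, with log2 fold changes of 0.00 and -0.00 and intervals of 2 SE from -0.12 to 0.12 and from -0.18 to 0.17. These 8 calls held without any 1 of the 4 libraries.

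Since the chains work in pairs, the counts of 2 subunits were also divided by each other within each library, a measure that needs no scaling between libraries. The ratio of ITGA6 to ITGB4 counts was 1.02 and 1.00 in the control, 1.20 and 1.32 in Cl1, and 2.21 and 2.29 in Cl10. The ratio of ITGA6 to ITGA3, the alpha chains of the laminin receptors, was 0.90 and 0.839 in the control, 1.44 and 1.47 in Cl1, and 2.92 and 3.06 in Cl10. Both ratios were lowest in the control and highest in Cl10, without overlap. Relative to ITGB1, the counts of ITGA5 went from a mean of 0.144 in the control to 0.103 in Cl1 and 0.0496 in Cl10, while those of ITGA2 were 0.249, 0.227 and 0.406. With 2 libraries a group no permutation test of a ratio can reach 0.05, and these ratios are given as a description. They are not adjusted for neighbouring genes. In Cl10 the median log2 fold change of the 50 nearest tested genes was -0.48 for ITGB4, -0.58 for ITGA3 and -0.54 for ITGA5. For ITGA6 it was 0.13, for ITGA2 0.15 and for ITGB1 -0.17. The part of the neighbours in the ratios was not tested.

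**Figure D3:**
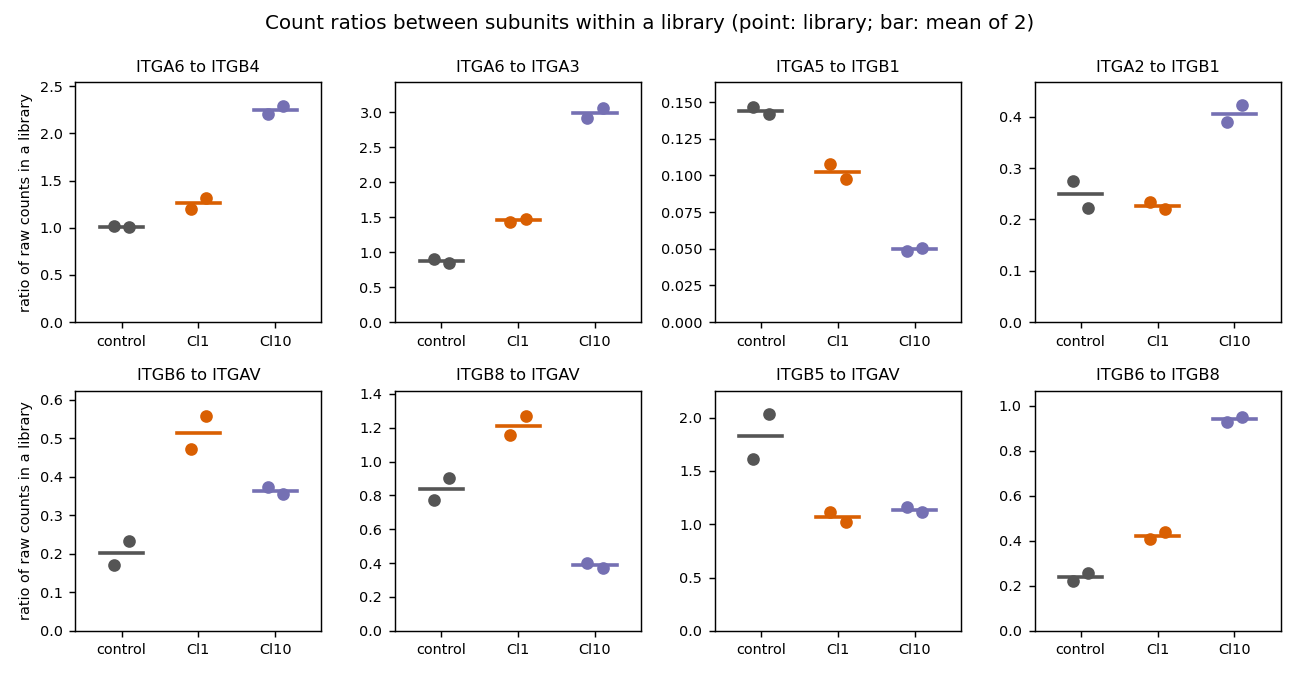
Ratios of raw counts between pairs of integrin genes within a library. Each point is 1 library, each bar the mean of 2, and axes start at 0. ITGA6 to ITGB4 runs from 1.01 in the control to 2.25 in Cl10, and ITGB6 to ITGB8 from 0.24 to 0.94, while ITGB8 to ITGAV is highest in Cl1. The ratios are not adjusted for neighbouring genes. Their median log2 fold change in Cl10 is -0.48 for ITGB4, -1.00 for ITGB8, 0.13 for ITGA6 and 0.13 for ITGB6.

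Among the partners of ITGAV, the ratio of ITGB6 to ITGB8 counts was 0.22 and 0.259 in the control, 0.408 and 0.439 in Cl1, and 0.929 and 0.95 in Cl10. ITGB6 relative to ITGAV went from a mean of 0.202 to 0.514 in Cl1 and 0.364 in Cl10. ITGB8 relative to ITGAV was 0.839 in the control, 1.21 in Cl1 and 0.387 in Cl10. ITGB5 relative to ITGAV stood at 1.82 in the control and at 1.06 and 1.13 in Cl1 and Cl10. The last of these ratios was therefore lower in both clones. In Cl1 the ITGB5 count was lower, and ITGAV also lay above both controls (log2 fold change 0.27, not past the test). In Cl10 the ITGAV count was higher. The median log2 fold change of the neighbouring genes in Cl10 was -1.00 for ITGB8, 0.13 for ITGB6, -0.10 for ITGAV and -0.03 for ITGB5, and the ratios are not adjusted for it.

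Levels of different genes were compared per kilobase of annotated exon. In every group ITGA6, ITGB4, ITGA3 and ITGB1 were the 4 highest members, whether the union of exons, the longest or the canonical transcript gave the length. Their order among themselves depended on that length. Among the 5 alpha chains, ITGA6 held 49.2% of the summed level in the control, 62.0% in Cl1 and 72.6% in Cl10 by the union of exons, and ITGA3 held 38.6%, 29.1% and 16.5%. Those of ITGA5 were 4.40%, 2.64% and 1.13%. Among ITGB1, ITGB5, ITGB6 and ITGB8, the share of ITGB6 was 2.59% in the control, 7.94% in Cl1 and 7.65% in Cl10. ITGB1 held 72.4%, 70.3% and 68.1% of that sum, ITGB5 20.8%, 14.6% and 21.2%, and ITGB8 4.13%, 7.14% and 3.11%. ITGB6 was the lowest of the 10 members in the control by each length, and ITGB8 the lowest in Cl10. The size of each share moved with the length used. In the control ITGA3 held more than ITGA6 by the longest transcript (48.9% against 40.0%) and by the canonical transcript (51.3% against 37.4%). In both clones ITGA6 held more than ITGA3 by all 3 lengths. By all 3 lengths the shares of ITGA6 and ITGB6 were higher, and those of ITGA3 and ITGA5 lower, in both clones than in the control.

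The genes lie on 7 chromosomes, with ITGA6, ITGAV and ITGB6 on chromosome 2 and ITGA3 and ITGB4 on chromosome 17. Coordinates are of hg38 with GENCODE v44. ITGB6 spans chr2:160099667-160200313 on the minus strand with 15 exons in its canonical transcript, and ITGA6 spans chr2:172427354-172506459 on the plus strand with 26. ITGA5 lies at chr12:54395261-54419266 on the minus strand, ITGA3 at chr17:50055968-50090481 and ITGB8 at chr7:20330702-20415754, both on the plus strand. For each member the median log2 fold change of the 50 nearest tested genes was taken. In Cl10 the neighbours of ITGB8 had a median of -1.00, with 39 of 50 lower past the test, and ITGB8 lay above 42 of them. Those of ITGA3 had -0.58, of ITGA5 -0.54 and of ITGB4 -0.48, with 27 of 50 lower in each, while the other 6 members had medians from -0.17 to 0.15. In Cl1 the neighbours of ITGA2 had -0.31, with 21 of 50 lower, and those of the other members lay between -0.15 and 0.14.

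Relative to its neighbours, ITGB8 in Cl10 was at 0.67 (edgeR adjusted p = 0.00152), the opposite sign of its change against the control. ITGA3 in Cl10 was at -0.23 and no longer passed (edgeR adjusted p = 0.107). ITGA5 kept -1.02 in Cl10, and ITGB6 kept 1.51 in Cl1 and 1.52 in Cl10. In Cl10 against Cl1, ITGB4 turned from -0.43 to 0.12 (edgeR adjusted p = 0.153). What moved the neighbours was not tested.

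Other genes of the integrin system were described by 4 lists. Of 16 other integrin subunits, 13 were tested, of which 1 rose and 3 fell in Cl1 (30.8% past the test, against 25.1% of all genes) and 1 rose and 2 fell in Cl10 (23.1%, against 42.5%). ITGAM, the alpha chain of a leukocyte integrin, was low, with 109 and 112 normalised counts in the control, 173 and 193 in Cl1, and 238 and 233 in Cl10, and rose in both (0.73 and 1.10 on the log2 scale). Of the leukocyte markers, CD14 also rose in both while PTPRC stayed at no more than 14 counts, and their part in the ITGAM values was not tested. ITGA2B, the platelet alpha chain, fell in both (-0.49 and -0.77). Without Cl1 replicate 2, ITGAM in Cl1 was at 0.65 (edgeR adjusted p = 0.0922), and without Cl1 replicate 1 or 2, ITGA2B was at -0.53 or -0.45 (edgeR adjusted p of 0.0903 and 0.163). Relative to its neighbours ITGA2B in Cl1 was at -0.33 (edgeR adjusted p = 0.112).

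Of 26 matrix ligands tested, 9 rose and 4 fell in Cl1 (50% past the test, against 25.1% of all genes), and 10 rose and 7 fell in Cl10 (65.4%, against 42.5%), with median log2 fold changes of 0.11 and 0.20. FN1, the fibronectin bound by ITGA5 and ITGB1, had 1261 and 873 normalised counts in the control, 421 and 403 in Cl1, and 358 and 403 in Cl10. All 4 clone values lay under both controls, with log2 fold changes of -1.37 (edgeR adjusted p = 0.000115) and -1.49 (edgeR adjusted p = 0.000985). TGFBI, a secreted TGF-beta-induced protein that binds integrins, rose by 0.97 and 1.52. COL5A1 rose by 0.61 and 0.56 and COL6A2 fell (-0.58 and -0.93), whereas COL6A1 rose in Cl1 (0.34) and fell in Cl10 (-0.53). COL5A1 in Cl1 was at 0.59 without Cl1 replicate 1 (edgeR adjusted p = 0.0614), and in Cl10 at 0.27 relative to its neighbours (edgeR adjusted p = 0.148). COL6A1 in Cl1 was at 0.34 without either Cl1 library (edgeR adjusted p of 0.247 and 0.259), at 0.27 with library size alone and at 0.32 without a filter (edgeR adjusted p of 0.086 and 0.0653).

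Of the 16 hemidesmosome components and membrane partners, 6 rose and 0 fell in Cl1 by edgeR (37.5% past the test, against 25.1% of all genes), while 3 rose and 4 fell in Cl10 (43.8%, against 42.5%). Lower members in Cl1 also numbered 0 at an unadjusted p under 0.05 and 0 by DESeq2. SDC1, a heparan sulfate proteoglycan of the surface, rose in both (0.51 and 0.31), as did CD47, an integrin-associated protein (0.69 and 0.32). SDC4, a co-receptor in focal adhesions, rose in Cl1 (0.52) and fell in Cl10 (-0.25, edgeR adjusted p = 0.0398, but 0.0581 with DESeq2). Relative to their neighbours, SDC1 and CD47 in Cl10 were at 0.05 and 0.20 and did not pass. Without either Cl10 library SDC1 (0.31 both times), CD47 (0.33 and 0.32) and SDC4 (-0.28 and -0.22) did not pass in Cl10. In Cl1, SDC1 without either Cl1 library (0.46 and 0.57) and SDC4 without Cl1 replicate 1 (0.46) did not pass.

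Of the 35 cytoplasmic adhesion proteins, 8 rose and 3 fell in Cl1 (31.4% past the test, against 25.1% of all genes). In Cl10, 18 rose and 3 fell (60%, against 42.5% of all genes). FERMT1, the kindlin that activates integrins in epithelium, had 3514 and 3004 normalised counts in the control, 5145 and 4835 in Cl1, and 7706 and 7792 in Cl10. Its groups did not overlap, and it rose by 0.62 and 1.25 on the log2 scale. The focal adhesion scaffolds PXN (0.51 and 0.54) and BCAR1 (0.47 and 0.72) rose in both clones. LIMS2, an adaptor of the integrin-linked kinase complex, rose in Cl1 (0.55) and fell in Cl10 (-0.54), and ZYX, a protein of mature adhesions and stress fibres, fell in Cl1 (-0.45) and rose in Cl10 (0.24). By DESeq2 the call of LIMS2 was lost in both clones (adjusted p of 0.068 and 0.104) and that of ZYX in Cl10 (adjusted p = 0.0629). LIMS2 in Cl1 was at 0.48 with library size alone (edgeR adjusted p = 0.0598), and ZYX in Cl10 at 0.22 without a filter and 0.19 relative to its neighbours (edgeR adjusted p of 0.0885 and 0.0869). In Cl1 the calls of PXN (0.48 and 0.53), BCAR1 (0.42 and 0.52), ZYX (-0.50 and -0.40) and LIMS2 (0.62 and 0.48) were lost without Cl1 replicate 1 and without Cl1 replicate 2, as was that of LIMS2 (0.48) without control 1. In Cl10 the calls of LIMS2 (-0.53 and -0.55) and ZYX (0.24 both times) were lost without Cl10 replicate 1 and without Cl10 replicate 2, and that of PXN (0.53) without Cl10 replicate 1.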

How the data were processed

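RNA-seq libraries of A253 control cells and of the DUSP1 clones Cl1 and Cl10 were used, 2 per group, grouped by their titles, and the SOX2 libraries were not analysed here. Per the labels and the study's methods, poly(A) RNA was sequenced as paired-end reads and aligned to hg38 with HISAT2, and reads were counted per gene with HTSeq. The deposited values are raw counts, without normalization. StringTie and DESeq are also listed in the submitters' processing notes. The annotation, the strand setting and the treatment of multimapping reads are not given in the sources used here, although the labels name a stranded kit. Isoforms, and reads of overlapping or antisense genes, could thus not be separated. ITGB8-AS1 reached 6.24% of the ITGB8 count and GALK1 4.72% of that of ITGB4, and no other overlapping gene exceeded 0.963% of a member.

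The counts were tested with edgeR 4.0.16 in R 4.3.3 (filterByExpr, TMM, estimateDisp, glmQLFit, glmQLFTest, Benjamini-Hochberg adjustment), each contrast with its own 4 libraries. Standard errors were derived from the F statistic. The lowest member count, 515 for ITGB6, has a counting error of 4.41%, which leaves out variation before sequencing. Between libraries of a group, 58.5% of genes differed by more than counting noise in the control, 47.3% in Cl1 and 23.6% in Cl10, so none was taken as a repeat deposit. Of 58735 identifiers, 58207 were in GENCODE v44, with 99.9% of the counts. Lengths were unions of exons, with the longest and the canonical transcript as alternatives.

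The members and gene lists were chosen with earlier results of these data known. Named were all members, DUSP1 and, from each list, up to 3 genes that passed in both clones in each direction, ranked by the smaller absolute log2 fold change, and up to 2 that passed in opposite directions. The values of 1 gene that met this rule are not reported here. Alternatives were DESeq2 1.42.0, other size factors, filters and fits, a replicate block, subtraction of the median of 50 neighbouring genes and leaving out each library. The canonical transcript length and the shares of alpha chains were added after seeing the data.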

Additional observations from a re-analysis of the deposited data

Results flagged for a closer look

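The difference from the shared control was not the same in Cl1 and Cl10 for 8 of the 10 integrin genes, by the direct test of Cl10 against Cl1 (edgeR's quasi-likelihood test, adjusted p under 0.05). The log2 differences, Cl10 over Cl1, were 0.84 for ITGA2, -0.63 for ITGA3, -1.05 for ITGA5, 0.41 for ITGA6, 0.50 for ITGAV, -0.43 for ITGB4, 0.59 for ITGB5 and -1.15 for ITGB8. That of DUSP1 was 0.48. Among the other genes named, the difference was -0.86 for COL6A1, -0.35 for COL6A2, 0.55 for TGFBI, -0.21 for SDC1, -0.77 for SDC4, -0.36 for CD47, 0.64 for FERMT1, -1.09 for LIMS2, 0.69 for ZYX and 0.24 for BCAR1. Relative to the neighbouring genes, the calls of ITGB4 (0.12) and DUSP1 (0.11, edgeR adjusted p = 0.539) were lost. DUSP1 was at 0.35 (edgeR adjusted p = 0.111) and BCAR1 at 0.22 (edgeR adjusted p = 0.126) without Cl10 replicate 1. SDC1 did not pass in 1 fit over 6 libraries (-0.21, edgeR adjusted p = 0.0849) or without either Cl10 library (-0.21 and -0.20). In this contrast 49% of all genes tested passed.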

How the results depend on the processing

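Limits are the 2 libraries per group, 1 clone each for Cl1 and Cl10, shared controls and counts per gene that do not resolve isoforms. A further limit is that the control is not described as a single-cell clone. The 30 member values (10 genes, 3 contrasts) kept their side of the threshold under DESeq2, other size factors, library size alone, both other filters, 1 fit over 6 libraries and the replicate block. They kept their direction there except in Cl10 against Cl1, where ITGB6 (-0.00) became 0.0057 with DESeq2, 0.068 with library size alone, 0.0054 without a filter and 0.0031 with the replicate block, and ITGB1 (0.00) became -0.0047 with at least 10 counts in every library and -0.0015 in 1 fit over 6 libraries. Without 1 library, 97 member values kept both, 6 gained and 8 lost the call, and 9 changed sign. The genes with such a change ranged from -0.36 to 0.093 for ITGA2 in Cl1, for ITGB1 from -0.086 to 0.067 in Cl1, -0.093 to 0.062 in Cl10 and -0.0063 to 0.018 between the clones, and from -0.14 to 0.13 for ITGB6 between the clones. With the local median subtracted, 21 of 30 kept both, ITGA3 in Cl10 lost its call, and 8 changed sign: in Cl1 ITGA2 became 0.16 and ITGB1 0.14, in Cl10 ITGB1 became 0.16, ITGB4 0.30 and ITGB8 0.67, and in Cl10 against Cl1 ITGB1 became -0.033, ITGB4 0.12 and ITGB6 0.12. Among other named genes in Cl10 against Cl1, COL5A1 turned to 0.023 with library size alone and PXN to -0.084 with the local median subtracted. The cause was not tested.

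The members past the test numbered 5, 7 and 8 (Cl1, Cl10, Cl10 against Cl1), and 1, 2 and 2 with a 2-fold change required. Without a library they ranged from 2 to 7 in Cl1, 6 to 9 in Cl10 and 8 to 8 between the clones, with fewer samples by construction. Other subunits went from 4 in Cl1 to 2 with the local median subtracted and 1 with 2-fold (1 to 4 without a library), and from 3 in Cl10 to 5 without a filter, in 1 fit over 6 libraries and with the local median subtracted (3 to 6 without a library). Matrix ligands went from 13 to 2 and from 17 to 5 with 2-fold (6 to 15 and 14 to 23 without a library). Hemidesmosome and membrane partners went from 6 and 7 to 0 and 0 with 2-fold (2 to 9 and 2 to 13). Cytoplasmic proteins went from 11 and 21 to 1 and 3 with 2-fold (4 to 19 and 8 to 29), and to 17 in Cl1 in 1 fit over 6 libraries. Over all genes, 5064 passed in Cl1 and 8439 in Cl10, against lows of 2718 and 5141 without a library. In Cl1, library size alone gave 1942 higher and 3191 lower, against 2489 and 2575.

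With the length of the longest transcript, the shares in control, Cl1 and Cl10 were 82.2%, 80.8% and 79.4% for ITGB1, 13.4%, 9.48% and 14.0% for ITGB5, 1.41%, 4.39% and 4.29% for ITGB6, and 3.05%, 5.34% and 2.36% for ITGB8. With the canonical transcript they were 87.4%, 86.3% and 85.3%, then 9.47%, 6.74% and 9.99%, then 1.00%, 3.12% and 3.06%, then 2.16%, 3.80% and 1.69%.

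Replicate numbers did not pair the libraries, with correlations of same-numbered deviations of -0.07, -0.02 and 0.01. With the replicate block, the members past the test stayed at 5, 7 and 8, and 4 values of other named genes lost their call (COL6A1 in Cl1 0.34, in Cl10 SDC1 0.31, SDC4 -0.25 and ZYX 0.24).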
